A study of Homo sapiens with 6 samples.

Results

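Competing 5' splice sites are alternative starts of an intron that are joined to the same 3' splice site, so that a transcript keeps or loses the stretch of sequence between them. The pairs described here are annotated introns that share their chromosome, strand and 3' splice site and whose neighbouring 5' splice sites lie 5 to 100 nt apart. A pair was kept when at least 20 uniquely mapped spliced reads fell on it in each of 6 libraries and at least 10 pooled reads fell on each site. The junction tables listed 4760 annotated pairs in that distance window, and 1436 of them (30.2%) met both minimums. They make up 47.3% of the 3038 neighbouring pairs 1 to 100 nt apart, annotated or not, that passed the same minimums and were tested together. The members were thus chosen by their read numbers, with no use of the difference between groups, although a minimum on each site favours pairs whose weaker site has a larger share or whose gene is abundant.

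The libraries were made from poly(A)+ RNA of K562, a human chronic myeloid leukaemia cell line. One group of 3 carried a knock-in of wild-type U2AF1 and the other group of 3 carried U2AF1 S34F, in which phenylalanine replaces serine in the protein. The labels do not say whether the replicates of a group were separate cultures or clones, so the p-values below measure the spread between these libraries, which may be technical. The comparison asks whether the choice between neighbouring 5' splice sites differed between S34F and wild-type cells.

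An intron's 5' end is first recognised by the U1 snRNP, which pairs with the bases around the exon end, and is then handed to the U6 snRNA before catalysis. SR proteins and hnRNPs bound nearby shift the choice where several such sites compete. U2AF1 acts at the other end of the intron, where it contacts the AG of the 3' splice site, and recurrent substitutions of its serine 34 in myeloid neoplasms are known for their effect on 3' splice site and exon choice. All reads of a pair here ended at the same 3' splice site. The measured quantity, the share of the pair's reads on the upstream 5' splice site (the upstream share), thus describes the choice of the intron's start for that end. Reads from the same 5' splice sites to another 3' splice site are not part of it. The share can differ between 3' splice sites, as described below. A high upstream share means a shorter exon. A distance divisible by 3 leaves the reading frame downstream of the intron as it was, if both sites lie in coding sequence.

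Positions name the outermost base of the intron at that end, counted from 1, in hg19, the build named in the submitters' processing notes. Bases at the splice sites, gene names, exon or UTR annotation and the expression markers of K562 were not analysed here, since no genome of that build was used. The libraries held 18074706 to 39279169 uniquely mapped spliced reads, with S34F replicate 3 the deepest and S34F replicate 2 the shallowest, and 3.67% to 4.52% of these reads fell on members. The median member had 89.5 to 213.5 reads in a library and 798.5 reads pooled over all libraries, and the pooled range was 156 to 202396. Across the 1436 members, the upstream shares of any 2 libraries correlated with r between 0.984 and 0.991, a description over pairs that share their libraries.

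The members lay on 23 chromosomes, with 713 on the plus and 723 on the minus strand. Chromosome 1 held 137, chromosome 17 held 126, chromosome 19 held 122 and chromosome 11 held 109. They used 1376 different 3' splice sites: 1323 of these served 1 pair, 49 served 2 pairs and 4 served more, so 113 members shared a 3' splice site with another member and were not independent of it. In 163 members an unannotated 5' splice site was listed between both annotated ones. The intron measured from the downstream site was 70 to 144376 nt long, with a median of 943.5 nt.

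At the limits of the rule, a member on chromosome 10 (plus strand, 52499744 and 52499763, 19 nt apart) had 20 reads in its shallowest library and an upstream share of 74.2% ± 8.30 (SD, n = 3) in wild type and 78.4% ± 4.93 in S34F. Just outside, a pair on chromosome 11 (66568574 and 66568633, 59 nt apart) had 19 reads in its shallowest library and shares of 93.2% ± 1.75 and 95.9% ± 3.59. At the minimum on each site, a member on chromosome 12 (minus strand, 112847296 and 112847214, 82 nt apart) had 10 pooled reads on its upstream site against 1768 on the other. A pair on chromosome 10 (92631826 and 92631892, 66 nt apart) stayed outside with 9 pooled reads on its downstream site against 775.

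Distances divisible by 3 were the most frequent class. They accounted for 626 of 1436 members (43.6%), against 401 (27.9%) with a remainder of 1 and 409 (28.5%) with a remainder of 2; 32 of the 96 whole distances in the window (33.3%) are divisible by 3. Among all 4760 annotated pairs listed, before any read minimum, the class held 38.1%. Among the 1235 tested pairs at 5 to 100 nt that were no members, at least 1 of whose junctions was unannotated, it held 37.2%. The most frequent single distances were 9 nt with 57 members, 6 nt with 45, and 12 and 15 nt with 39 each. They were followed by 18 nt with 35 and 21 nt with 28, all multiples of 3, while 5 nt and 27 nt had 27 each. The excess was widest at short distances: a multiple of 3 held on average 51 members and another distance 23 where sites lay 5 to 9 nt apart, against 21.7 and 14.8 where they lay 21 to 50 nt apart. From 85 to 100 nt, a range picked out after its counts were seen, the averages were 7.40 and 7.18, and multiples of 3 held 31.9% of the members there against 31.2% of the whole distances.

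**Figure D1:**
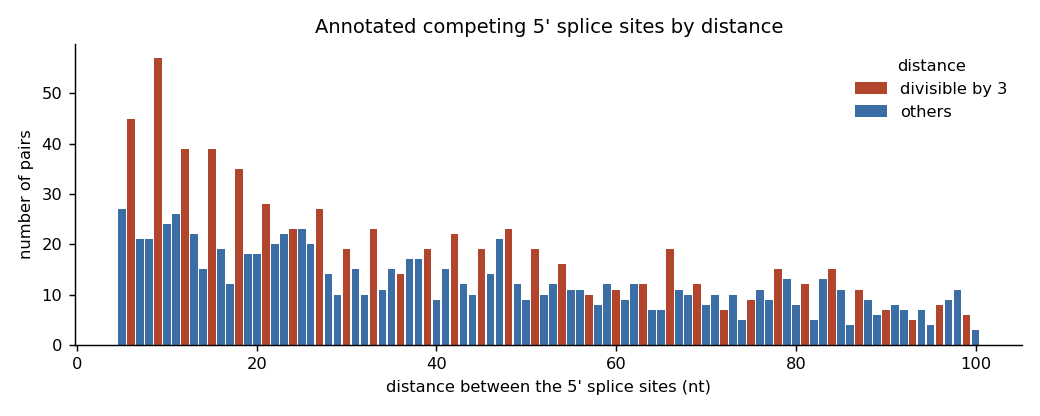
Number of members (y axis, pairs of annotated 5' splice sites) at each distance between both sites (x axis, nt), with distances divisible by 3 in red and others in blue. The tallest bars stand at 9 nt with 57 pairs and 6 nt with 45 pairs, and 626 of the 1436 pairs lie at red distances.

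Most members had a clear favourite. The upstream shares fell at both ends of the scale: the quartiles of the members, by the mean over 6 libraries, were 6.65% and 92.4%. In 605 members (42.1%) the weaker site took under 5% of the reads, and in 360 (25.1%) it took at least 20%. The same 20% was reached in 3.89% of the tested pairs at 5 to 100 nt that were no members. The upstream site was the stronger one in 705 members (49.1%), so neither position was favoured over all members.

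Both sites were used side by side more often where the distance was divisible by 3. Per library, 30.8% ± 0.789 (SD, n = 6 libraries) of these 626 pairs had a weaker site with at least 20% of the reads, and the 6 libraries ranged from 29.9% to 31.8%. Among the 810 pairs at other distances the value was 20.9% ± 0.340, with a range of 20.6% to 21.4%. The classes did not overlap in any library. The difference is one between sets of pairs measured in the same libraries and was not tested as one between samples. The median share of the weaker site was 8.47% ± 0.254 in the first class and 5.93% ± 0.368 in the second.

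The same order was seen at every depth and distance examined. Of pairs with under 500 pooled reads, 44.9% of those divisible by 3 and 33.8% of the others had a weaker site with at least 20%. At 500 reads up to under 2000 the values were 29.4% and 16.5%, and at 2000 or more reads they were 13.4% and 8.89%. The share of evenly used pairs was thus lower in deeper pairs of both classes, and a deeper pair can meet the minimum of 10 reads per site with a smaller share. Sites 5 to 9 nt apart gave 38.2% and 21.7%, and sites 10 to 20 nt apart gave 34.5% and 25.3%. For sites 21 to 50 nt apart the values were 30.9% and 17.6%. The classes came closest where the distance was 51 to 100 nt, with 24.2% and 21.3%. With no read minimum beyond 1 pooled read on each site, the class values were 27.9% and 23.8%.

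Over the whole window, the upstream site was the stronger in 45.1% ± 0.798 of the pairs divisible by 3 per library (n = 6 libraries) and in 51.3% ± 0.268 of the others. A stronger downstream site gives the longer exon. By the mean over libraries, the upstream site was the stronger in 52.9% and 55.1% of pairs 5 to 9 nt apart, 48.7% and 61.0% of those 10 to 20 nt apart, 42.4% and 46.6% of those 21 to 50 nt apart, and 43.8% and 51.2% of those 51 to 100 nt apart. The class divisible by 3 was thus lower in each bin, while in the shortest bin the upstream site was the stronger in most of its pairs too. The mean upstream share was 46.5% ± 0.363 against 51.3% ± 0.329, and the median was 40.8% ± 1.19 against 56.1% ± 1.17. The medians lay further apart than the means, and few pairs had shares between the ends of the scale. Pairs with an upstream share of 90% to 100% made up 23.3% ± 0.681 of the class divisible by 3 and 32.5% ± 0.60 of the others, while shares of 0% to 10% made up 29.7% ± 0.598 and 30.8% ± 0.356. The gap between the medians depended on the distance and on the read minimums. Where sites lay 21 to 50 nt apart the medians stood the other way round, at 37.3% for distances divisible by 3 and 33.9% for others, and without read minimums they were 51.3% and 52.2% over the window.

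**Figure D2:**
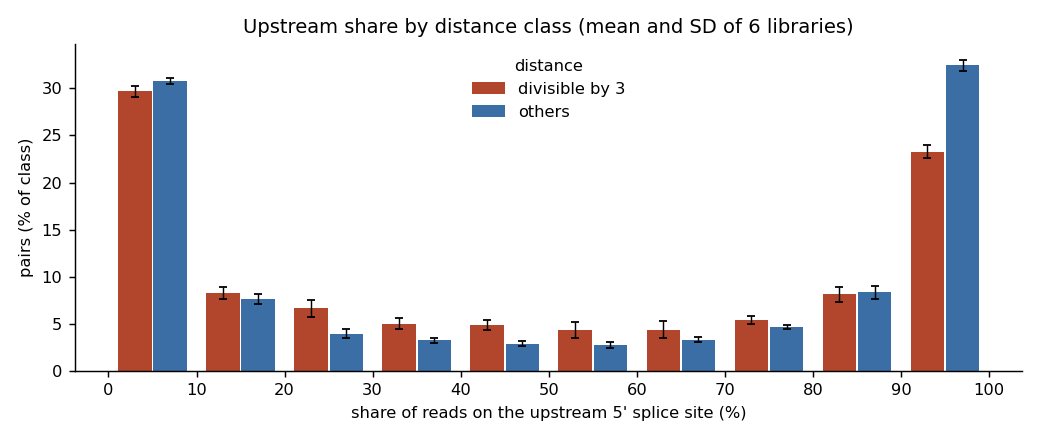
Percentage of pairs of a class (y axis) in steps of 10 percentage points of the upstream share (x axis, %), as the mean of 6 libraries with error bars of 1 SD; red bars are distances divisible by 3 (626 pairs) and blue bars are others (810 pairs). Both classes pile up at the ends, and the blue bar at 90% to 100% (32.5%) exceeds the red one (23.3%).

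No member differed between S34F and wild type at the threshold used. A pair counted as called when its Benjamini-Hochberg adjusted p from edgeR's quasi-likelihood test was under 0.05 over all 3038 tested pairs and the group means of the upstream share lay at least 10 percentage points apart. By that rule 0 of 1436 members were called, and 0% of all tested pairs were. At an unadjusted edgeR p under 0.05 there were 104 members (7.24%), 54 with a higher and 50 with a lower upstream share in S34F. Over all tested pairs, members included, 7.87% reached the same level, 4.25% upward and 3.62% downward, so the members' share lay near the background. Of the tested pairs at 5 to 100 nt that were no members, 8.74% reached it. With the other tools, DESeq2 called 0 members and gave 26 unadjusted p-values under 0.05, and limma on log2 odds called 0 and gave 86. Both tools gave 0 adjusted p-values under 0.05 over all 3038 tested pairs. Their shares of all tested pairs at an unadjusted p under 0.05 were not determined, so 26 and 86 have no background here.

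In 1064 of 1436 members (74.1%), the difference between group means was under the larger of both within-group SDs, and in 641 (44.6%) it was under both. The median absolute difference between group means was 1.48 percentage points, while the median SD within a group was 2.11 points in wild type and 1.959 points in S34F. Over all tested pairs the median absolute difference was 0.999 points. The 3 libraries of one group lay wholly above or below those of the other in 189 members (13.2%), 105 upward and 84 downward, against 12.7% of all tested pairs (7.04% upward and 5.66% downward). A difference of at least 10 points was measured in 44 members (3.06%), against 1.81% of all tested pairs. In 35 of these members the weaker site took at least 20% of the reads. That level was reached by 25.1% of all members and by 14.6% of all tested pairs. Of these 44, the upstream share was higher in S34F in 28 and lower in 16, the groups overlapped in 19, and the median pair had 386 pooled reads, under the 798.5 of all members.

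The class medians of the upstream share differed little between groups. For distances divisible by 3 the median was 39.9%, 39.2% and 41.8% in the wild-type libraries and 40.2%, 42.2% and 41.7% in S34F. For other distances it was 56.8%, 55.2% and 54.5% in wild type, against 57.1%, 55.6% and 57.3% in S34F. The groups overlapped in both classes, and the differences of 1.06 and 1.18 points were smaller than the SD of wild type in both (1.30 and 1.21 points). They were larger than the SD of S34F (0.997 and 0.956 points). With 3 libraries against 3, an exact permutation test cannot give a p below 0.1, so none was used. Pairs whose weaker site took at least 20% made up 30.9% ± 0.963 of the class divisible by 3 in wild type and 30.8% ± 0.788 in S34F, and 20.9% ± 0.428 and 20.9% ± 0.327 of the other class.

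**Figure D3:**
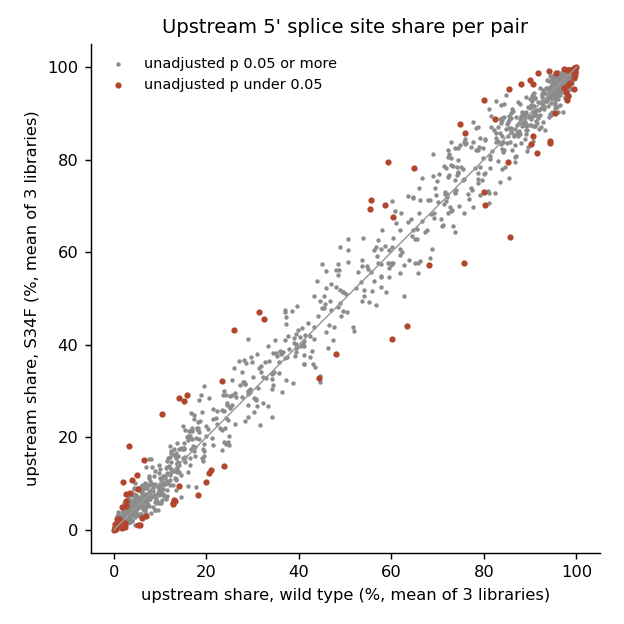
Mean upstream share of each of the 1436 members in wild type (x axis, %, 3 libraries) and S34F (y axis, %, 3 libraries); the line marks equal shares, and red points are the 104 members with an unadjusted edgeR p under 0.05. The points follow the line, and no pair was called after adjustment.

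Counts for that comparison were close in both distance classes. Of the pairs divisible by 3, 48 (7.67%) had an unadjusted edgeR p under 0.05, 26 of them upward and 22 downward, and their median absolute difference was 1.43 points. Of the others, 56 (6.91%) did, 28 in each direction, with a median of 1.499 points. That level was reached by 5.26% of members 5 to 9 nt apart, 4.12% of those 10 to 20 nt apart, 6.63% of those 21 to 50 nt apart and 10.3% of those 51 to 100 nt apart. All tested pairs of the same 4 bins, members included, gave 5.05%, 7.18%, 7.77% and 9.96%. The members' highest share, at 51 to 100 nt, was thus close to its background, though 485 of the 823 pairs there were members. At 10 to 20 nt the members' share was lower than that of all tested pairs. In that widest bin 31 of 50 such members had a higher upstream share in S34F, against 53 of 82 such pairs among all tested.

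The member with the lowest p lay on chromosome 7, plus strand, with 5' splice sites at 156752869 and 156752948 (79 nt apart, 3' splice site at 156754844). Its upstream share was 79.2%, 90.9% and 86.6% in the wild-type libraries and 72.7%, 58.8% and 58.5% in S34F. Every S34F library lay below every wild-type library, and replicate 1 of each group lay closest to the other group. The means were 85.5% ± 5.94 and 63.3% ± 8.13 (SD, n = 3), a change in log2 odds of -1.85 ± 0.44 (SE), with an edgeR adjusted p of 0.0918 over all tested pairs and 44 to 118 reads per library. At this depth the 95% interval of the change ran from -2.71 to -0.99 on the log2 odds scale. Without wild-type replicate 1 the adjusted edgeR p was 0.0252, and with at least 50 pooled reads required on each site, which left 1035 pairs to adjust over, it was 0.0114. Over 17 alternatives the adjusted p was under 0.05 in 3, with the 5 to 500 nt window described below as the other one. It was 0.492 without wild-type replicate 2, 0.534 without S34F replicate 3, 0.603 with limma and above 0.999 with DESeq2, while the change in log2 odds stayed between -2.26 and -1.54.

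Among the other pairs at distances not divisible by 3 with the widest gaps, the upstream share was higher in S34F in 3 and lower in 1, and no adjusted p was under 0.05. On chromosome 1, minus strand, at 33799785 and 33799690 (95 nt), the upstream share was 20%, 11.97% and 10.4% in wild type, against 28.6%, 24.2% and 32.7% in S34F. The groups did not overlap. The log2 odds differed by 1.30 ± 0.37 (SE) with an edgeR adjusted p of 0.196, which became 0.0488 without wild-type replicate 1 and 0.0306 with at least 50 pooled reads on each site. In the other 16 of 18 alternatives it was not under 0.05, with 0.546 without wild-type replicate 2, 0.795 without S34F replicate 3, 0.603 with limma and above 0.999 with DESeq2.

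On chromosome 16, minus strand, at 15224943 and 15224930 (13 nt), the shares were 51.3%, 65.6% and 63.6% in the wild-type libraries and 38.1%, 46.5% and 39.1% in S34F. The groups did not overlap, the edgeR adjusted p was 0.501, and 43.2% of the reads on that pair mapped to several places and were left out of the shares. With those reads added, the change in log2 odds went from -1.02 to -0.32, with an edgeR adjusted p of 0.902. On chromosome 3, minus strand, at 129151398 and 129151345 (53 nt), the shares were 25%, 11.4% and 11.1% against 29.1%, 31.0% and 27.5%, with an edgeR adjusted p of 0.501. Wild-type replicate 1 lay far above the other wild-type libraries there and still below all S34F libraries. On chromosome 19, minus strand, at 19104456 and 19104446 (10 nt), the means were 32.5% ± 3.56 and 45.5% ± 5.70 with an edgeR adjusted p of 0.559.

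Of the 5 pairs with the widest gaps at distances divisible by 3, 3 had a higher and 2 a lower upstream share in S34F. On chromosome 19, minus strand, at 49858568 and 49858559 (9 nt, in an intron of 96 nt), the shares were 61.3%, 68.4% and 47.7% in wild type, against 84.1%, 80.6% and 73.5% in S34F. The groups did not overlap, and wild-type replicate 3 was the lowest of all libraries. The difference in log2 odds was 1.28 ± 0.43 (SE), with an edgeR adjusted p of 0.388 and 36 to 113 reads per library.

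On chromosome 8, minus strand, the sites at 38285869 and 38285863, 6 nt apart, had shares of 75.7%, 73.9% and 77.3% in the wild-type libraries and 55.0%, 62.0% and 56.1% in S34F. The replicates lay close together and the S34F mean differed from wild type by -17.9 points, but the shallowest library had 20 reads, and the edgeR adjusted p was 0.520. A second pair on that chromosome, at 41519393 and 41519318 (75 nt), had 29.1%, 27.2% and 21.5% in wild type against 39.4%, 39.8% and 50.5% in S34F. It had the lowest edgeR adjusted p of these 5, at 0.250. On chromosome 7, minus strand, at 149248745 and 149248664 (81 nt), the means were 31.4% ± 7.43 and 47.0% ± 3.13 with an edgeR adjusted p of 0.520. The remaining pair, on chromosome 19 at 45681392 and 45681350, is described below with its other 3' splice site.

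**Figure D4:**
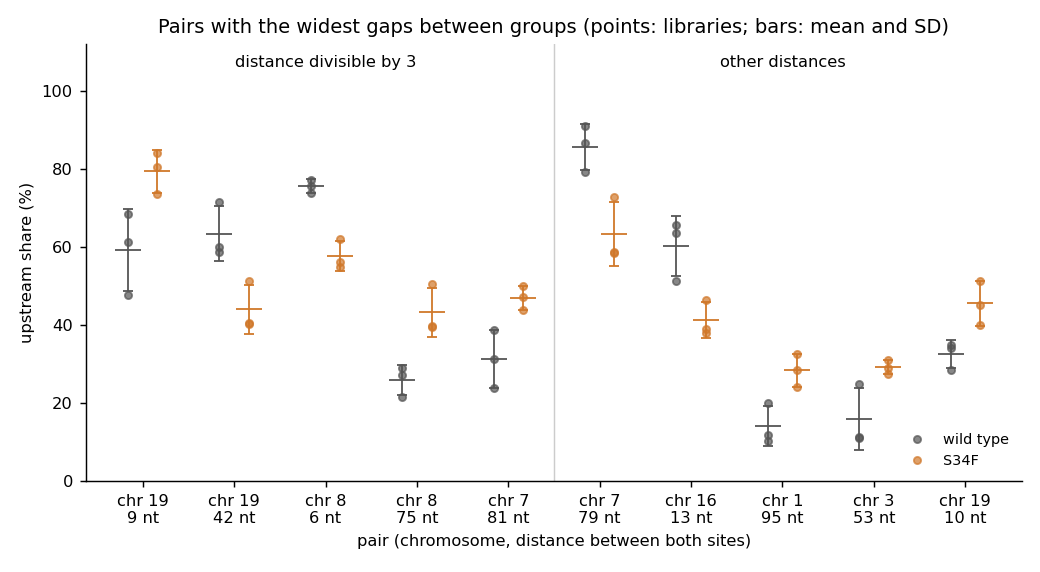
Upstream share (y axis, %) in each library of the 10 members with the widest gaps between group means among those with an unadjusted edgeR p under 0.05 and groups that do not overlap; grey points are wild type, orange points S34F, horizontal bars the mean and vertical bars 1 SD of 3 libraries, and the x axis names the chromosome and distance. The groups are apart by construction of the choice, and 5 of the 10 pairs stand in each distance class.

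Of the 6 members with the lowest p-values, 3 were far from even use, and these were picked out after their values were seen. On chromosome 18, minus strand, at 43675018 and 43674945 (73 nt), the upstream share was 99.6% ± 0.0604 in wild type and 98.9% ± 0.312 in S34F over 11599 pooled reads, with an edgeR adjusted p of 0.150. On chromosome 8, at 101730410 and 101730314 (96 nt), it was 0.865% ± 0.280 and 1.55% ± 0.252 over 32700 reads, with an edgeR adjusted p of 0.196. Here the groups did not overlap, yet the differences of -0.703 and 0.686 points were far under the 10 points of the rule. On chromosome 6, plus strand, at 109480306 and 109480357 (51 nt), it was 91.6% ± 3.54 and 98.8% ± 0.294, with an edgeR adjusted p of 0.150. In 2 of its 17 alternatives this was under 0.05: 0.0369 without wild-type replicate 1 and 0.0482 in the 5 to 500 nt window. With at least 50 pooled reads on each site, the pairs on chromosomes 18 and 8 had 0.0208 and 0.0306, each in 1 of 18 alternatives. With DESeq2 the adjusted p was above 0.999 in all 3. No difference reached 10 points in these settings, so none was called.

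Leaving out wild-type replicate 1 brought 3 members past both thresholds, and no other library left out did so for any member. Besides the pairs on chromosomes 7 and 1 above, this was a pair on chromosome 1, minus strand, at 234744240 and 234744192 (48 nt), which had an edgeR adjusted p of 0.585 with all libraries. Without that library its means were 45.8% ± 8.71 in wild type (n = 2) and 69.4% ± 3.83 in S34F, with an edgeR adjusted p of 0.0252. That was the lowest of its 19 alternatives, and the rest were not under 0.05. Over all 3038 tested pairs, 7 had an edgeR adjusted p under 0.05 without wild-type replicate 1, and 4 of these were members. With at least 50 pooled reads on each site, 3 members were called too: the pairs on chromosomes 7 and 1 at 156752869 and 33799785, and a pair on chromosome 19 at 1632036 and 1631949 (87 nt, the downstream site beginning with GC). Its means were 91.5% ± 4.65 and 81.4% ± 1.46, with an edgeR adjusted p of 0.0306 there and 0.185 in the full table. With that minimum of 50 reads, 8 of all 1035 tested pairs had an edgeR adjusted p under 0.05. Of these, 5 were among the 755 members left.

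The most deeply read pairs with both sites in use had 538 to 5782 reads in each library. On chromosome 1, minus strand, at 173834647 and 173834608 (39 nt, 28499 pooled reads), the upstream share was 52.3%, 47.9% and 46.8% in wild type, against 44.8%, 43.7% and 49.8% in S34F. The groups overlapped, and the 95% interval of the change in log2 odds was -0.55 to 0.22. On chromosome 19, plus strand, at 18682698 and 18682720 (22 nt, 23271 reads), the shares were 58.9%, 64.5% and 62.1% against 64.8%, 66.5% and 63.1%, with an interval of -0.20 to 0.57. Neither interval reached a change of 1 in log2 odds.

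The spread between S34F libraries was wide in some of these pairs in spite of their depth. On chromosome 14, minus strand, at 21699155 and 21699116 (39 nt, 21374 reads), wild type had 60.7%, 59.4% and 61.2% while S34F had 75.01%, 58.5% and 69.5%. The SD was 0.893 points in wild type and 8.39 points in S34F, S34F replicate 2 lay below all wild-type libraries, and the edgeR adjusted p was 0.531. The same library was the lowest of its group on chromosome 7, minus strand, at 99063751 and 99063733 (18 nt, 21194 reads), where wild type had 43.8%, 48.6% and 44.9% and S34F had 58.5%, 44.6% and 53.4%. There the edgeR adjusted p was 0.684.

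In other deeply read pairs the group means lay at most 3.54 points apart. On chromosome 6, plus strand, at 34208660 and 34208693 (33 nt, 16506 reads), the means were 24.2% ± 1.84 and 24.1% ± 3.00. On chromosome 10, plus strand, at 70091974 and 70091993 (19 nt, 5893 reads), they were 59.9% ± 1.30 and 57.6% ± 0.421; the groups did not overlap, and the edgeR adjusted p was 0.916. On chromosome 11, plus strand, at 75112750 and 75112770 (20 nt), they were 66.5% ± 2.17 and 66.8% ± 3.42 over 5407 reads, and 43.4% of the reads there mapped to several places. On chromosome 1, plus strand, at 8021796 and 8021854 (58 nt), the means were 53.5% ± 4.01 and 57.1% ± 6.50, and the libraries ran from 49.1% to 64.2%.

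Some pairs were used almost evenly. On chromosome 16, plus strand, at 67116212 and 67116243 (31 nt, 2099 reads), the upstream share was 50.8%, 48.9% and 51.1% in the wild-type libraries and 52.1%, 47.7% and 52.8% in S34F. On chromosome 22, minus strand, at 21983890 and 21983831 (59 nt, 3221 reads, in an intron of 135 nt), the means were 50.5% ± 4.66 and 47.1% ± 1.83. On chromosome 6, minus strand, at 31620200 and 31620176 (24 nt, 2373 reads), they were 48.9% ± 7.93 and 51.9% ± 3.97. The groups overlapped in all 3 of these pairs, which were chosen for their even use.

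A small share of members set a GC against a GT at the start of the intron. GC is the commonest exception to the GT that begins nearly all introns, and it pairs less well with U1. In 75 members 1 site began with GC, per the motif code in the deposited tables, and none had GC at both sites or an AT-AC junction. The GT site was the stronger in 51 of them and the GC site in 24. The median share of the GC site was 6.86% in the 38 members where it was upstream and 34.8% in the 37 where it was downstream, and the whole range ran from 0.0325% to 99.8%. The weaker site had a median share of 6.28% in these pairs and 6.99% in the 1361 pairs with GT at both sites. At an unadjusted edgeR p under 0.05 there were 5 of the 75, against 7.87% of all tested pairs.

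The most deeply read GC pairs used the GC site rarely. On chromosome 17, plus strand, at 41150849 and 41150930 (81 nt, 137921 reads), the upstream GT site took 99.95% to 99.98% of the reads in every library. On chromosome 10, plus strand, at 79793663 and 79793745 (82 nt, 82912 reads), it took 99.70% to 99.85%. The groups overlapped in both, and the edgeR adjusted p-values were 0.805 and 0.947.

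The same 2 sites could be weighed differently when joined to another 3' splice site. There were 17 pairs of 5' splice sites that were members with each of 2 different 3' splice sites, which makes 34 members. In 7 of them the upstream shares with the nearer and the farther 3' splice site did not overlap in any of the 6 libraries, and in 10 they did. The gap between the means was at least 10 points in 8 and under 5 points in 7, with a median of 7.60 points. The pairs named in the next paragraphs were picked out after their values were seen, no test was run on the gaps, and reads of both 3' splice sites come from the same libraries.

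The widest gap was on chromosome 12, minus strand, at 120636697 and 120636656 (41 nt). With the nearer 3' splice site at 120636574, the upstream site took 99.3% ± 0.557 (SD, n = 6 libraries) of 2444 reads. With the 3' splice site at 120636543, which lies 31 nt further on, it took 0.0153% ± 0.0134 of 102203 reads. The stronger 5' splice site was thus the opposite one, in every library.

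Smaller gaps in the opposite direction stood on chromosomes 15, 20 and 12. At 91512753 and 91512676 on chromosome 15 (77 nt), the upstream share was 10.2% ± 1.85 with the nearer 3' splice site and 52.6% ± 8.18 with one 1918 nt further on. At 34252723 and 34252681 on chromosome 20 (42 nt), it was 7.21% ± 2.48 with the nearer and 30.9% ± 7.12 with the farther one. At 123465814 and 123465847 on chromosome 12 (33 nt), it was 37.3% ± 7.93 and 58.6% ± 5.86 with 3' splice sites 24 nt apart. In all 3, the upstream share was higher with the farther 3' splice site. On chromosome 20 the downstream 5' splice site stayed the stronger one with both.

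In 3 of the 17, both 3' splice sites lay 3 nt apart, the spacing of tandem NAGNAG acceptors. At 6762110 and 6762101 on chromosome 12 (9 nt), the upstream share was 9.11% ± 4.76 over 238 reads with the nearer of them and 30.0% ± 5.47 over 395 reads with the farther. At 23299150 and 23299158 on chromosome 14 (8 nt), it was 86.7% ± 3.11 over 2698 reads and 98.0% ± 0.404 over 1742 reads. At 40506456 and 40506474 on chromosome 1 (18 nt), it was 25.7% ± 4.51 and 25.8% ± 2.99. The first 2 thus stood apart in all libraries and the last did not. On chromosome 16, at 28847444 and 28847498 (54 nt), the nearer 3' splice site had the higher value, 94.9% ± 0.986 against 84.2% ± 5.56.

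**Figure D5:**
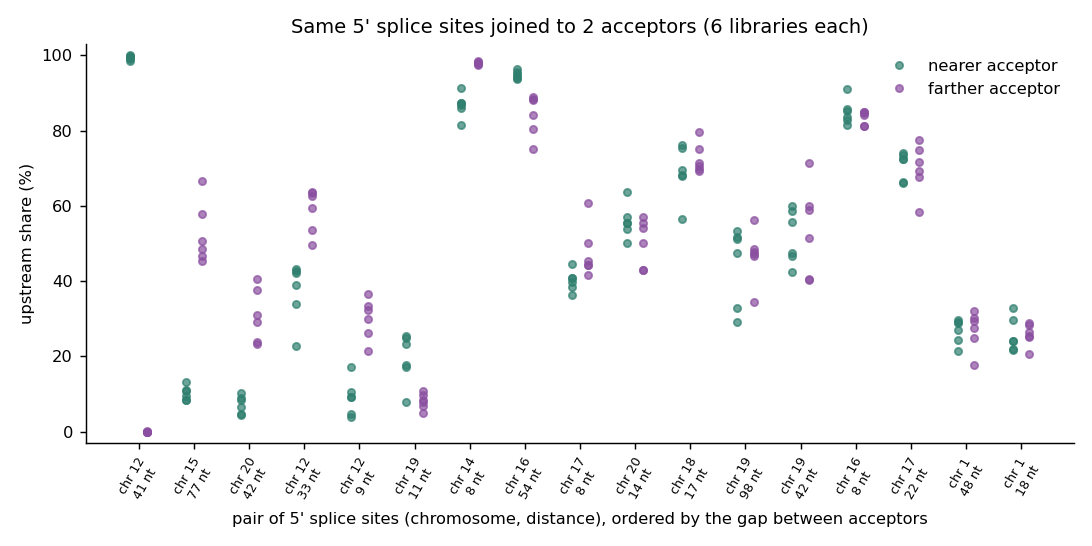
Upstream share (y axis, %) of 17 pairs of 5' splice sites, each joined to 2 annotated 3' splice sites, ordered by the gap between the means; green points are the 6 libraries with the nearer 3' splice site and purple points the same libraries with the farther one, and the x axis names the chromosome and distance. The points do not overlap in 7 pairs, and the first pair, on chromosome 12, goes from 99.3% to 0.0153%.

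One of these pairs was also among those with the widest gaps between genotypes. At 45681392 and 45681350 on chromosome 19, minus strand (42 nt), with the 3' splice site at 45668229, the upstream share was 58.8%, 71.4% and 60.0% in wild type, against 40.5%, 51.4% and 40.3% in S34F. The groups did not overlap, and the edgeR adjusted p was 0.520 with 223 pooled reads. With the 3' splice site at 45668453, the same 5' splice sites had 55.7%, 42.4% and 47.5% in the wild-type libraries and 58.6%, 60.0% and 46.7% in S34F, where the groups overlapped. The opposite order with the second 3' splice site was not tested as a difference.

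At 4 of the 3' splice sites, 5 or 6 annotated 5' splice sites were listed in a row. On chromosome 14, plus strand, 6 sites fed the 3' splice site at 20923736, and the site at 20923554 took 66.0% to 77.1% of its 1981 reads in every library. The next strongest, at 20923488 and 20923498, took 9.06% to 19.9% and 7.32% to 16.2%. On chromosome 7, plus strand, the first of 5 sites before 141438923 took 56.0% to 70.2% of 5306 reads, and the second, 93 nt further on, took 18.9% to 27.8%.

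In the remaining rows, no single site took most of the reads. On chromosome 6, minus strand, at the 3' splice site 31619554, the sites at 31620200 and 31620176 took 36.4% ± 3.83 and 38.4% ± 7.999 of the reads in wild type and 38.3% ± 4.92 and 35.4% ± 1.17 in S34F. On chromosome 19, minus strand, at 38800284, the most upstream site at 38806508 took 25.7% ± 1.02 in wild type and 35.4% ± 6.38 in S34F, and the most downstream one at 38806356 took 35.2% ± 3.89 and 29.2% ± 3.13. At 38806508 the S34F libraries had 28.5%, 41.1% and 36.5%, all above wild type, while at 38806356 the groups overlapped. Shares of a whole row were not tested between groups. Members of such a row share junctions, so their values are not independent.

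Annotated sites further apart were set beside the members in the genotype comparison. Annotated pairs up to 500 nt apart were fitted in a separate table of 7232 neighbouring pairs 1 to 500 nt apart, of which 0.761% were called by the same rule. In that fit 1 of the 1436 members was called, the pair on chromosome 7 at 156752869, with an edgeR adjusted p of 0.0375, whereas 42 of 2498 annotated pairs more than 100 and up to 500 nt apart were called (1.68%), 25 with a higher and 17 with a lower upstream share in S34F. An unadjusted edgeR p under 0.05 was reached by 4.94% of the members, 14.1% of the pairs more than 100 and up to 200 nt apart and 19.4% of those more than 200 nt apart, against 13.5% of all pairs in that table. Median pooled reads were alike, at 798.5, 778 and 828. Sites more than 100 nt apart can belong to different exons, 1 of them skipped, and how many do was not determined here. No test of the difference between distances was run.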

How the data were processed

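Poly(A)+ RNA libraries of K562 cells were sequenced as paired ends on an Illumina HiSeq2000, per the labels' protocols. The authors deposited 1 junction table per library with STAR and hg19 named in the submitters' processing notes; STAR options, annotation and filters are not given in the sources used here. The deposited values used are raw counts of uniquely mapped reads per junction, with multi-mapped counts, motif code, annotation flag and largest overhang beside them. No genome of the build was used.

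Tables were joined by position (Python 3.11.15, pandas 2.3.3), and junctions not listed for a library entered with a count of 0. The members, lists and tests were chosen with earlier results of these data known. The test was edgeR 4.0.16 (R 4.3.3, robust quasi-likelihood, legacy dispersion) on 2 counts per library and pair, with an intercept per library, the site, and site by S34F; p-values were adjusted by Benjamini-Hochberg over 3038 pairs. The intercept removes depth and transcript level. The SE was derived from the coefficient and its F statistic. The test was also run on simulated counts, with changes planted only in pairs away from the ends of the share scale. The outcome is not given here, and no result above rests on it.

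Named pairs were those with an adjusted p under 0.05 (0 pairs); per distance class the 5 widest differences with an unadjusted p under 0.05 and groups apart, the 4 deepest with a weaker site of at least 20%, and the 2 nearest 50% among those of 1000 or more reads; the 2 deepest with a GC-AG or AT-AC junction; and pairs at the read minimums. Alternatives were DESeq2 1.42.0, limma 3.58.1 (0.5 reads added), other filters, read types, distance windows, a replicate block and each library left out. Within groups, no 2 libraries held counts within read-sampling noise of each other (chi-square per pair 1.58 to 2.18), so none was treated as a library deposited again; that covers counting error only, takes reads as independent and does not show separate cultures. Multi-mapped reads were 11.7% to 14.0% of member reads in wild type and 11.7% to 16.6% in S34F. Intervals are 95% and assume the fitted spread.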

Additional observations from a re-analysis of the deposited data

How the results depend on the processing

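Every count of called members was 0, except in 3 settings: leaving out a library gave 0 to 3, a minimum of 50 pooled reads per site gave 3, and a window of 5 to 500 nt gave 43, most of them past 100 nt. Over all tested pairs, at most 7 of 3038 had an edgeR adjusted p under 0.05 with a library left out. With 50 pooled reads per site 8 of 1035 had one, and in the 500 nt fit 131 of 7232. The count at an unadjusted p under 0.05 (104 of 1436) was 73 to 120 with a library left out and 26 with DESeq2. In the other fits of the 5 to 100 nt window it was 71 to 143, over unlike numbers of members. It was 71 of 964 with at least 50 reads in every library and 76 of 755 with 50 pooled reads per site. With multi-mapped reads it was 134 of 1869, and with no filter 143 of 4052. At 5 to 50 nt it was 60 of 951 pairs, and at 5 to 500 nt 514 of 3934. The share over all tested pairs was taken only from the main edgeR fit (7.87%) and the 500 nt fit (13.5%). Replicate numbers did not pair the libraries: same-numbered libraries deviated with correlations of -0.0304 to 0.0115, and 2 of 6 libraries correlated best with their own number. With the number as a replicate block, 0 members were called and the count at an unadjusted p under 0.05 was 89.

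The class medians of the upstream share (40.8% and 56.1% for distances divisible by 3 and others) became 37.7% and 56.3% with at least 50 reads in every library, 42.7% and 51.8% with a mean of 20 reads, 51.3% and 52.2% with no filter, 42.8% and 52.6% with 50 pooled reads per site, 44.0% and 56.6% with multi-mapped reads, 42.5% and 58.05% with an overhang of 20 nt, 42.3% and 56.5% among neighbours of all junctions, 42.8% and 56.0% at 5 to 50 nt, and 39.1% and 55.0% with 1 pair per acceptor. Means in place of medians were 46.5% and 51.3%. The order of the classes held in all of these. With no filter, however, the medians lay closer together than their SDs over the 6 libraries (1.26 and 2.64 points). Such SDs measure the spread between libraries on the same pairs. They do not measure the uncertainty of a difference between classes of pairs. Leaving out a library gave 40.6% to 41.1% and 55.8% to 56.4%.

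The percentage of pairs whose weaker site took at least 20% (30.8% and 20.9%) became 24.05% and 13.5% with at least 50 reads in every library, 34.1% and 24.1% with a mean of 20 reads, 27.9% and 23.8% with no filter, 51.9% and 40.9% with 50 pooled reads per site, 29.3% and 21.2% with multi-mapped reads, 33.8% and 21.1% at 5 to 50 nt, and 30.7% and 20.5% with 1 pair per acceptor. The first class was higher in every setting, and leaving out a library gave 30.6% to 31.0% and 20.8% to 20.9%.

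Of 376 alternative values of the 23 named pairs, 362 kept direction and call (at 15224943 on chromosome 16 the change shrank to -0.32 with multi-mapped reads), 4 passed the threshold and 10 changed sign, all 10 in pairs with an edgeR adjusted p of 0.805 or more. With multi-mapped reads added, the change in log2 odds turned to -0.097 at 75112750 on chromosome 11 and to 0.083 at 41150849 on chromosome 17. With each library left out in turn, it ranged from -0.076 to 0.13 at 34208660 on chromosome 6, from -0.092 to 0.13 at 75112750, from -0.015 to 0.455 at 31620200 on chromosome 6, from -0.091 to 0.562 at 79793663 on chromosome 10, from -0.013 to 0.381 at 8021796 on chromosome 1 and from -0.010 to 0.13 at 67116212 on chromosome 16. The causes were not tested. The 10 pairs with the widest gaps had 223 to 898 pooled reads. How far depth or the spread between libraries limits the single-pair values was not tested.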
